A study of Mus musculus with 5 samples.

Results

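The cells described here are 216 of the 884 sorted cochlear neurons labelled Runx1-CKO, out of 1954 neurons of both genotypes. They were chosen by 3 measured levels, given as UMIs (unique molecular identifiers, counted molecules) per 10000 UMIs of the cell: Dupd1 under 1, Lypd1 under 3 and Calb2 under 150. Their counterpart is the 395 of 1070 control neurons within the same limits. The working name of the cells, neurons with intermediate Calb2, and the markers given with it (Calb1, Ttn and Sh3bgr) were checked against the data.

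Controls carried bhlhb5-Cre/+ and Ai14/+, and CKO mice carried both alleles together with Runx1F/F, so Cre and the tdTomato reporter were present in every mouse and the floxed Runx1 alleles are the difference the labels give. Cochleae came from animals of both sexes aged P30 to P33, were dissociated with collagenase and papain, and gave tdTomato-sorted neurons for droplet libraries of the 10x 3' type. Bhlhb5-Cre acts in many developing neurons, and the design states that Runx1 was ablated in the embryo. GEO lists 2 control and 3 CKO libraries, with the number of animals in each not stated. A cell carries only its genotype, so each genotype was treated as 1 pool, differences have no test, and their intervals (95%, exact) cover counting error only.

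Spiral ganglion neurons carry sound information from the hair cells to the brainstem. Type I neurons contact inner hair cells and are divided into Ia, Ib and Ic, which in most accounts carry high calretinin (Calb2), calbindin (Calb1) and Lypd1 with Pou4f1, respectively; the rarer type II neurons contact outer hair cells. Runx1 is a transcription factor of the Runt family, which binds DNA together with the partner Cbfb. In the control ear it is known from the Ib and Ic neurons.

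Runx1 RNA was not lower in the selected cells labelled CKO. Its mean was 2.41 UMIs per 10000 in CKO and 1.75 in control cells (without 7 cells described below), a rate ratio of 1.39 (1.31 to 1.47). Single CKO cells ran from 0 over a median of 2.34 to 7.07, and control cells from 0 over 1.62 to 5.53, so the pools overlapped widely. Without the stretch of cells numbered 4 below, the log2 difference went from 0.44 to 0.54. CKO neurons outside the selection averaged 1.65 with Calb2 of 150 or more, 2.51 with high Lypd1 and 0.0300 with Dupd1, against 0.223, 1.84 and 0.00548 in control. A 3' assay reads the end of the transcript and the labels do not name the deleted exons, so this level does not check the deletion. Runx1 lies on the minus strand of chromosome 16 at 92601466 to 92826149 (mm10).

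The order of barcodes restarts along the columns and so marks 5 stretches. Numbers 1, 3 and 4 are labelled CKO, numbers 2 and 5 control, and the library behind each is not given in the sources used here. Stretch 4, labelled CKO, stood apart from the other CKO stretches in neurons outside the selection. In neurons with Calb2 of 150 or more, Runx1 averaged 2.04 in stretch 1 and 1.47 in stretch 3, but 0.0816 in the 19 cells of stretch 4. Control stretches 2 and 5 had 0.271 and 0.209. In neurons high in Lypd1, Sh3bgr averaged 2.83 and 2.36 in stretches 1 and 3, but 0.122 in stretch 4, where control stretches 2 and 5 had 0.280 and 0.413. In the neurons with Calb2 of 150 or more, however, Sh3bgr averaged 1.60 in stretch 4, near the 1.64 and 1.18 of CKO stretches 1 and 3 and above the 0.952 and 0.880 of control. Stretch 4 was thus control-like in Runx1 of the former class and Sh3bgr of the latter but not throughout. Only some of the results that rest on it are given with and without it, or by stretch. Stretch 4 also had no UMI of the Y-linked Ddx3y in its classes of neurons, while each other stretch had some.

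The selected cells were 29.5% of the CKO and 41.5% of the control neurons with Dupd1 under the limit. CKO stretches 1, 3 and 4 gave 27.6%, 24.9% and 44.0%, and control stretches 2 and 5 gave 42.2% and 41.0%. Without stretch 4 the CKO share was 26.3%. Stretches 1 and 3 thus lay below both control stretches, and stretch 4 above them. In a sorted suspension these shares do not give the makeup of the ganglion. The CKO cells had a median of 41767 UMIs (11249 to 99938) and the control cells 37312 (12029 to 66978).

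Not every selected cell carried type I markers. The limits set only upper bounds, and 4 CKO cells (all in stretch 1) and 3 control cells (all in stretch 2) passed them with Calb2 under 3 and the vesicular glutamate transporter Slc17a7 under 2. One of the CKO cells had 61.7 UMIs per 10000 of the myelin basic protein gene Mbp, a second had 166 of the growth factor Ptn and 114 of the lipid carrier Apoe, and neither had a UMI of the synaptic gene Snap25. The remaining 5 had Snap25, and 4 of these carried Plk5, a gene listed here for type II neurons. Unless stated otherwise, values below are from the other 212 CKO and 392 control cells.

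Calb2, the calcium buffer calretinin, is kept under 150 by the rule, so only its lower side describes the cells. Single CKO cells ran from 12.3 over a median of 86.4 to just under the limit of 150, and control cells from 3.39 over 54.6 to 146.7. CKO stretches 1, 3 and 4 averaged 105.5, 89.6 and 47.6, control stretches 2 and 5 averaged 55.3 and 65.2. Control neurons above the Calb2 limit averaged 245.1 and control neurons high in Lypd1 9.88. The upper limit ran through a continuous distribution in CKO: 18 CKO cells lay at 140 to 150 and 19 at 150 to 160. Cells just inside and just outside it had Calb1 at 2.91 and 3.07, Sh3bgr at 2.13 and 1.94, and Btbd9 at 0.929 and 1.01. For Lypd1, 12 selected CKO cells lay between 1 and 3, and 12 cells between 3 and 6 fell outside the selection.

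The selected CKO cells were of 2 kinds, which the expression of Btbd9, an adaptor for a cullin ubiquitin ligase, separated almost without intermediates. A limit of 5 UMIs per 10000, placed after the values were seen, left 113 CKO cells below and 99 above it, and only 1 CKO cell and 0 control cells between 3 and 5. Of the control cells 20 were below it and 372 above. The share below it was 84.6% (74.7 to 91.8) in CKO stretch 1 and 61.3% (49.4 to 72.4) in stretch 3. It was 1.69% (0.0429 to 9.09) in CKO stretch 4, 0.588% in control stretch 2 and 8.56% in control stretch 5. Without stretch 4 it was 73.2% of the CKO cells.

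**Figure D1:**
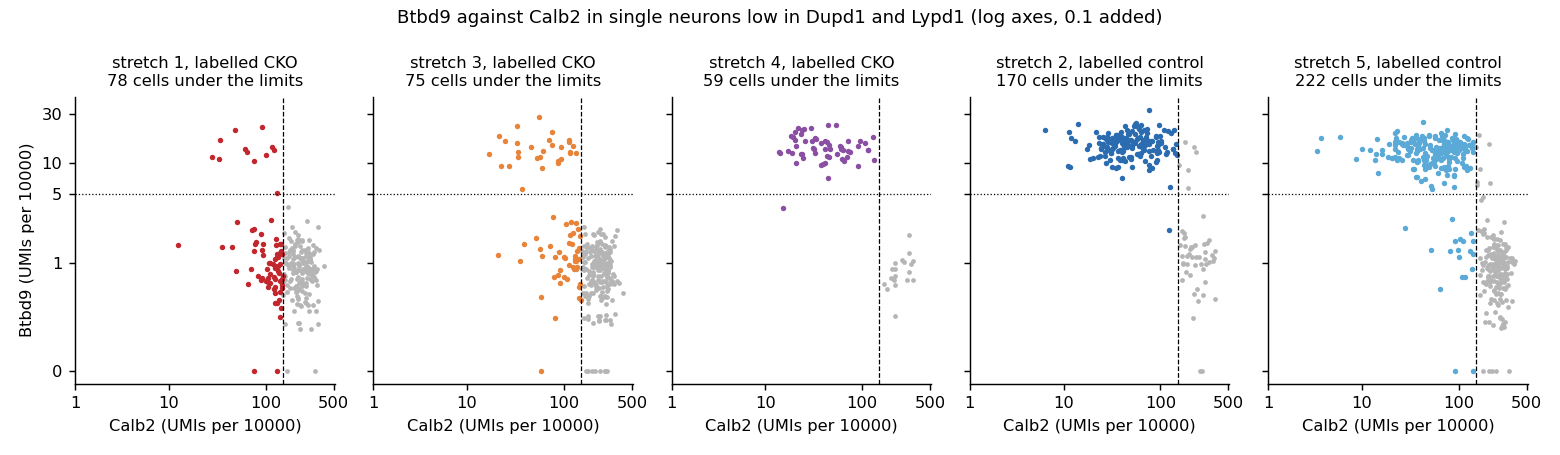
Btbd9 (vertical) against Calb2 (horizontal), both in UMIs per 10000 on log axes with 0.1 added, for each neuron low in Dupd1 and Lypd1, in 1 panel per column stretch. Coloured points are the selected cells, grey points lie at or above the Calb2 limit of 150 (dashed line), and the dotted line marks the Btbd9 limit of 5. In CKO stretches 1 and 3 most selected cells lie below the dotted line (66 of 78 and 46 of 75), in stretch 4 only 1 of 59 does.

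The Btbd9-low CKO cells held the upper range of Calb2 within the limit, with a median of 117.7 against 45.4 in the Btbd9-high cells. Among cells with Calb2 between 75 and 150, 78.5% of 121 CKO cells were Btbd9-low, against 13.8% of 123 control cells. By stretch it was 90.6% and 77.1% in CKO stretches 1 and 3, and none of the 9 cells of stretch 4. Calb2 was not matched in this range, with means of 115.9 in CKO and 101.4 in control. In the same Calb2 range Calb1 averaged 2.85 in CKO and 1.36 in control cells, Sh3bgr 1.71 and 0.453, and the neuronal adhesion gene Mdga1 9.49 and 5.20. Between 25 and 75 the Btbd9-low share was 22.1% of 68 CKO and 1.35% of 223 control cells. The 20 Btbd9-low control cells were shallow, with a median of 18080.5 UMIs against 37960 in the Btbd9-high control cells. The Btbd9-low and Btbd9-high CKO cells had medians of 40917 and 41917 UMIs.

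The markers given for the cells did not move together. Calb1, the calcium buffer calbindin on chromosome 4, averaged 3.10, 2.30 and 2.36 UMIs per 10000 in CKO stretches 1, 3 and 4. Control stretches 2 and 5 had 1.30 and 1.33. Its level was thus higher in each of the 3 CKO stretches than in either control stretch, with a pooled log2 difference of 0.94 and a rate ratio of 2.01 (1.89 to 2.13). Single CKO cells ran from 0 over a median of 2.21 to 16.5, and control cells from 0 over 0.845 to 8.18. Without stretch 4 the log2 difference was 0.99.

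Sh3bgr, a small thioredoxin-fold protein gene on chromosome 16, had the largest pooled log2 difference of the genes with a mean of at least 0.5. It averaged 2.06, 1.36 and 0.143 in CKO stretches 1, 3 and 4. Control stretches 2 and 5 had 0.305 and 0.442. Stretch 4 thus lay below both control stretches. The pooled log2 difference was 1.52, with a rate ratio of 3.51 (3.17 to 3.89), and it was 1.91 without stretch 4. Within CKO, Sh3bgr averaged 2.07 in the Btbd9-low and 0.382 in the Btbd9-high cells. The Btbd9-high control cells had 0.338. Without stretch 4 the Btbd9-high CKO cells had 0.716, at log2 0.90 against control.

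Ttn, the gene of the giant sarcomere protein titin, was higher in neither genotype throughout. It averaged 0.420, 0.558 and 1.64 in CKO stretches 1, 3 and 4. Control stretches 2 and 5 had 2.10 and 0.657. The pooled log2 difference was -0.61. It was -1.24 without stretch 4 and 0.24 without control stretch 2 (the latter with the 7 cells kept), so the control stretches differed from each other more than CKO stretches 1 and 3 differed from control stretch 5.

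**Figure D2:**
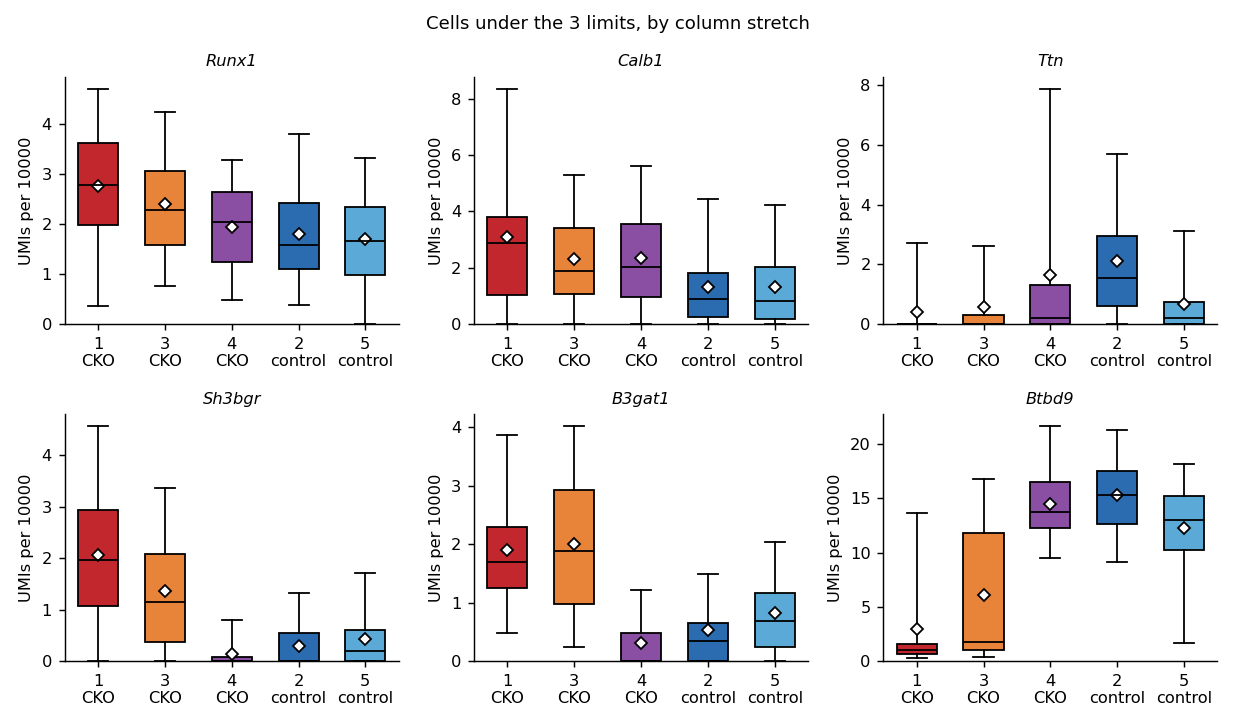
UMIs per 10000 of 6 genes in the selected cells of each column stretch, in 212 CKO and 392 control cells. Boxes span the quartiles with the median as a line, whiskers run from the 5th to the 95th percentile of cells, and diamonds are means; Calb1 is higher in all 3 CKO stretches, whereas Sh3bgr, B3gat1 and Btbd9 set stretches 1 and 3 apart from stretch 4 and the controls.

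Detection in single cells differed between the Btbd9 classes. After thinning each cell to 10000 UMIs, which leaves depth equal, Calb1 and Sh3bgr were both detected in 44.3% (37.5 to 51.3) of 212 CKO cells and in 8.67% (6.08 to 11.9) of 392 control cells. At full depth the shares were 64.6% and 35.2%. Calb1 and Ttn were both detected in 17.0% of CKO and 26.0% of control cells after thinning. Single-gene shares in CKO were 77.4% for Calb1, 55.7% for Sh3bgr and 23.1% for Ttn, and the pairs are not set against what these give by themselves. Among the Btbd9-low CKO cells the pair of Calb1 and Sh3bgr reached 68.1% (58.7 to 76.6), and that of Calb1 and Ttn 5.31%. In the Btbd9-high CKO cells the order was the reverse, with 17.2% for Calb1 and Sh3bgr and 30.3% for Calb1 and Ttn. However, 58 of these 99 cells came from stretch 4, against 1 of the 113 Btbd9-low cells. Mean Sh3bgr in the Btbd9-high cells was 0.588 and 0.769 in stretches 1 and 3, but 0.145 in stretch 4. The shares were not taken without stretch 4, so class and stretch are not told apart here. As a level of background, the thinned share with Calb1 in Dupd1-bearing neurons, which should lack it, was 1.97% in CKO and 0.840% in control, and that with Sh3bgr 5.92% and 2.52%, at median depths of 27102 and 25326 UMIs. The median depths of the selected cells were 41844.5 in CKO and 37536 in control.

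Across all genes the selected CKO and control cells were close. Over all 216 and 395 cells, 3805 genes had a mean of at least 0.5 UMIs per 10000 in either pool, 10 were at least 2-fold higher in CKO (0.263%) and 3 at least 2-fold lower (0.0788%). Some of these rested on the 7 cells set aside above: without them the counts were 6 (0.158%) and 2 (0.0527%) of 3796 genes, and Ptn went from log2 1.73 to -0.24 and Apoe from 1.37 to -0.071. The muscle light chain Myl1, at 0.0929 against 0.669 with them, was the third lower gene. Without stretch 4 as well, 11 genes were higher (0.289%) and 8 lower (0.21%) of 3801.

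The 6 higher genes after this step were Sh3bgr, Ceacam10, Ptgds, Cwc22, Mir6236 and Gnao1. Gnao1, the G protein subunit Go alpha, averaged 0.798, 0.636 and 0.224 in CKO stretches 1, 3 and 4, against 0.175 and 0.247 in control stretches 2 and 5, so stretch 4 lay among the controls. Ceacam10, a member of the carcinoembryonic antigen family, was higher in every CKO stretch: 0.741, 1.05 and 0.746 in stretches 1, 3 and 4, against 0.291 and 0.199 in control. Ptgds, prostaglandin D synthase, averaged 2.17 in CKO stretch 3 and 1.34 in stretch 4, with stretch 1 between them, and 0.284 and 1.03 in the control stretches. Neither gene was particular to the selected cells. Both were higher in each CKO stretch than in either control stretch also in neurons above the Calb2 limit, high in Lypd1 or with Dupd1. With high Lypd1, Ceacam10 averaged 0.909, 2.05 and 1.04 in CKO stretches 1, 3 and 4, against 0.328 and 0.349 in control. In the cells below the median glial sum of their pool, Ceacam10 and Ptgds had the opposite sign, with log2 -0.24 and -0.65. That median was 34.6 in CKO and 49.9 in control, so glial RNA was not matched.

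Cwc22, a splicing factor, was high in a single stretch: it averaged 1.79 in stretch 1, but 0.534 and 0.655 in CKO stretches 3 and 4, against 0.194 and 0.572 in control. Stretch 1 was also the highest in neurons above the Calb2 limit (1.19), high in Lypd1 (1.24) or with Dupd1 (1.71). The microRNA gene model Mir6236 ranged from 2.35 to 6.08 in CKO and from 0.985 to 2.75 in control, so the ranges overlapped. In those other classes it was highest in CKO stretch 4 and lowest in control stretch 5. Neither gene's pattern was thus particular to the selected cells. Just under the 2-fold line stood B3gat1, which makes the HNK-1 sugar, with a rate ratio of 2.16 (1.98 to 2.35) and log2 1.36 without stretch 4. CKO stretch 1 had 1.90 and stretch 4 had 0.314, with 0.532 and 0.826 in control.

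The 2 lower genes were Lgals1 and Rnf123. Lgals1, the sugar-binding galectin-1, averaged 0.658, 1.24 and 1.24 in CKO stretches 1, 3 and 4. Control had 2.23 and 2.46, so that each CKO stretch lay below each control stretch, with a log2 difference of -1.13. The Btbd9-low CKO cells averaged 0.518. In the Btbd9-high cells the difference was smaller, with 1.86, 2.22 and 1.25 in CKO stretches 1, 3 and 4, against 2.23 and 2.57 in control. Among these cells log2 was -0.18 without stretch 4. Rnf123, a RING-type ubiquitin ligase, had the same order, with 0.581, 0.927 and 1.40 in CKO and 2.12 and 1.87 in control (log2 -1.02). Btbd9 stood at log2 -0.89, and at -1.57 without stretch 4, where it was the gene furthest down.

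**Figure D3:**
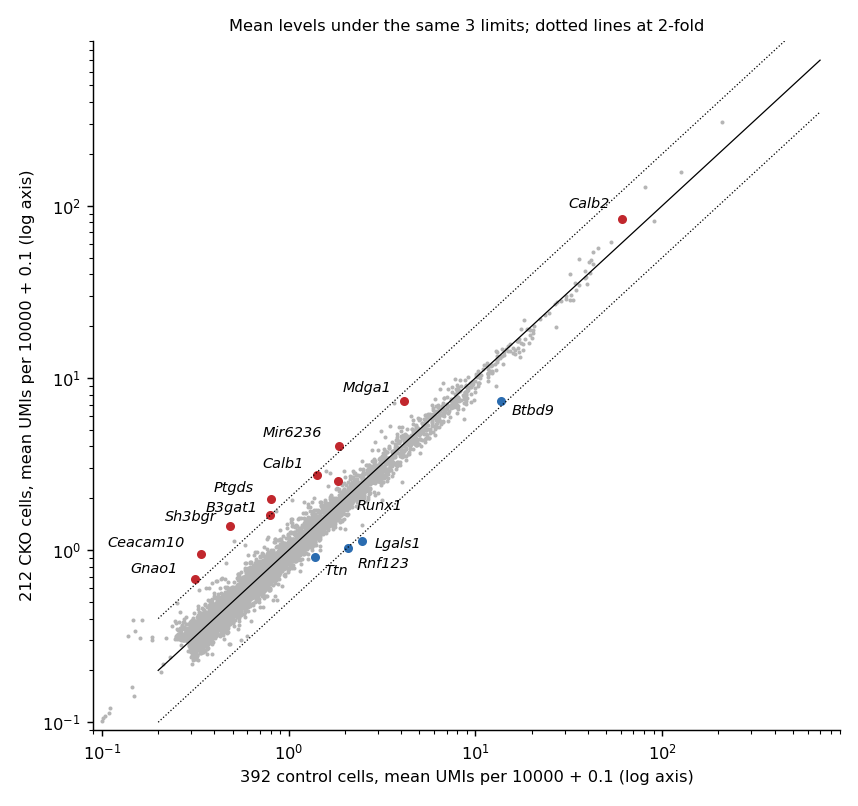
Mean UMIs per 10000 of each gene in 392 control cells (horizontal) and 212 CKO cells (vertical), with 0.1 added, on log axes; each point is a gene, the solid line is equality and dotted lines mark 2-fold. Most genes lie near the line of equality, with Sh3bgr, Ceacam10 and Ptgds above the upper dotted line and Lgals1 and Rnf123 at the lower one.

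The Btbd9-high CKO cells differed in few genes from the Btbd9-high control cells. Of 3795 genes, 4 were at least 2-fold higher (0.105%) and 1, a predicted gene, lower (0.0264%) in the 99 CKO against the 372 control cells. One of the 4 was Ush1c, the scaffold protein harmonin of hair cells, at log2 2.23: in CKO all of it came from stretch 4, where it averaged 1.03, while stretches 1 and 3 had none and control stretch 2 had 0.105. Without stretch 4, 41 CKO cells remained, 3 of 3805 genes were higher (0.0788%) and 0 lower (0%). The 3 were Ptgds (log2 1.20), Ceacam10 (1.17) and Cwc22 (1.01). Cwc22 averaged 1.62 in the 12 cells of stretch 1 but 0.591 in stretch 3, against 0.195 and 0.557 in control. Ptgds had 1.60 and 1.76 in stretches 1 and 3, and the control stretches were far apart at 0.285 and 1.03. Ptgds and Ceacam10 are the genes whose sign changed in selected cells low in glial RNA. Calb1 stood at 2.07, 1.81 and 2.40 in the Btbd9-high cells of CKO stretches 1, 3 and 4, and at 1.31 and 1.43 in those of control stretches 2 and 5. B3gat1 and Gnao1 were near control in the 99 CKO cells, at 0.541 against 0.599 and 0.226 against 0.201. Without stretch 4, B3gat1 was 0.942.

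The Btbd9-low CKO cells were set beside the 242 control neurons above the Calb2 limit, which like them are low in Btbd9 and high in Mdga1 and B3gat1. Of 3753 genes, 27 were at least 2-fold higher in the 113 CKO cells (0.719%) and 7 lower (0.187%). Calb2 itself is lower here by the rule, and the split by Btbd9 used the same cells, so the counts are a description. The genes named in this and the next paragraphs on Btbd9-low cells were picked after their values were seen.

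Runx1 had the largest log2 difference, 3.10: its mean was 2.67 against 0.223, a rate ratio of 12.4 (10.8 to 14.3). Calb1 averaged 2.98 against 0.283, and the axon guidance molecule Ntng1 1.51 against 0.0932. The vesicular glutamate transporter Slc17a6 averaged 1.60 against 0.279, the R-spondin receptor Lgr5 1.04 against 0.103, and the transcription factor Pou4f1 0.503 against 0.00851. For Pou4f1 the control value rests on 8 UMIs. The Btbd9-low cells of stretches 1 and 3 had 2.81 and 2.50 of Runx1, 3.29 and 2.60 of Calb1 and 1.44 and 1.61 of Ntng1, so both stretches showed the difference. The 19 Btbd9-low control cells of stretch 5 had 0.251, 0.236 and 0.126 of these 3 genes. These levels lay near those of the control neurons above the Calb2 limit.

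At the same time the Btbd9-low CKO cells had similar levels of B3gat1 (2.33 against 2.02) and of Mdga1 (log2 -0.17). The lower genes included Plin2, which coats lipid droplets, with 0.0688 against 0.554, the muscle glycogen phosphorylase Pygm with 0.124 against 0.548, the retinoid receptor Rxrg with 0.151 against 0.507, and the uridine phosphorylase Upp1 with 0.254 against 0.741. Pygm also differed between the Btbd9-low cells of CKO stretches 1 and 3 (0.193 and 0.0264). The comparisons of control classes with one another share these control neurons, so their levels are given side by side. Btbd9-high control cells had 1.83 of Runx1, 1.37 of Calb1 and 2.50 of Ntng1. Lypd1-high control neurons had 1.84 of Runx1, and 1.19 and 1.14 of Pou4f1 in stretches 2 and 5. The median depth of 40917 UMIs in the Btbd9-low CKO cells lay below the 50506 and 48726 of CKO and control neurons above the Calb2 limit; the part of doublets was not tested. Xist was among the 27 and the Y-linked Ddx3y among the 7, so the balance of these sex-linked transcripts differed between the 2 groups.

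Of the 30 genes that set Btbd9-high control cells above the control neurons with high Calb2 (Btbd9 and the genes of the rule left out), the Btbd9-low CKO cells passed the midpoint between these 2 groups for 13, and their median position was 0.42 of the way. The CKO neurons above the Calb2 limit stood at 0.11 and the Btbd9-high CKO cells at 0.99. Each of these 2 groups was cut by the same Calb2 or Btbd9 limit as the control end it lay near, so its position follows in part from the selection. In addition, the genes were chosen in the same control cells that set the 2 ends, so the positions are a description. Of the 14 genes that set the high-Calb2 control neurons above the Btbd9-high control cells, they passed the midpoint for 4, at a median position of 0.27.

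**Figure D4:**
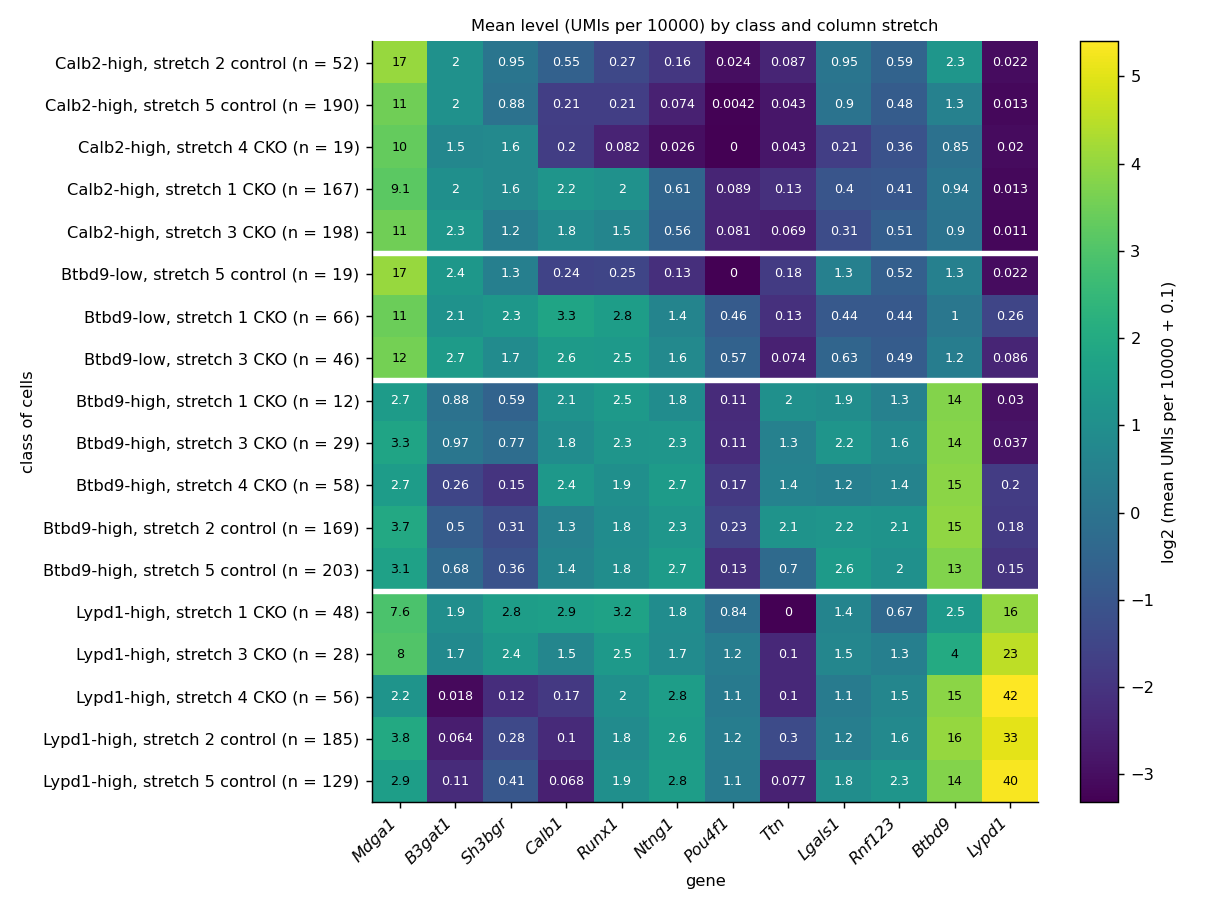
Mean UMIs per 10000 of 12 genes (columns) in each class of neuron and column stretch with at least 10 cells (rows), with the class, the stretch, its genotype label and its number of cells at the left; colour is log2 of the mean with 0.1 added. Among the low-Btbd9 rows, Calb1, Runx1 and Ntng1 are high in CKO stretches 1 and 3 and low in control stretch 5, and in stretch 4 Runx1 and Calb1 of the rows above the Calb2 limit, and Sh3bgr and B3gat1 of those high in Lypd1, are low as in control.

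Within the CKO pool, the same cells also differed from the 384 CKO neurons above the Calb2 limit. Of 3703 genes, 8 were at least 2-fold higher (0.216%) and 2 lower (0.054%), the latter being Calb2 and Upp1. The higher ones included Pou4f1 (0.503 against 0.0801), the collagen gene Col27a1 (1.40 against 0.469), Rbfox3, the neuronal splicing factor NeuN (0.702 against 0.221), and the prohormone convertase Pcsk2 (1.09 against 0.399). Runx1 and Calb1 were higher by less, with 2.67 against 1.65 and 2.98 against 1.90. Since the groups were parted by Calb2, these differences describe the selection.

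Against the 76 Lypd1-high CKO neurons of stretches 1 and 3, the 153 selected cells of these stretches had 4 of 3764 genes at least 2-fold higher (0.106%) and 11 lower (0.292%). Beside Lypd1, the lower ones included the complexin Cplx2 (0.207 against 1.96), the Rab3 effector Rph3a (0.191 against 1.04), the glutamate receptor Grm8 (0.165 against 0.670) and Pou4f1 (0.402 against 0.973). Calb2, Edil3, Zfp804a and the sarcomere gene Neb were the higher ones. The Lypd1-high CKO neurons of these stretches had levels near those of the selected cells for Runx1 (2.92 against 2.59), Calb1 (2.41 against 2.71) and Ntng1 (1.77 against 1.68). They also had Sh3bgr at 2.66 against 1.72 and B3gat1 at 1.80 against 1.95, so these genes together were not particular to the Btbd9-low cells.

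Several functional groups had no member past 1.5-fold. Among the 6671 genes with a mean of at least 0.2 in either pool, 42 (0.63%) were 1.5-fold higher and 20 (0.3%) lower, with a median log2 of -0.03; without stretch 4 these were 62 (0.929%) and 54 (0.809%). None of 7 voltage-gated sodium and HCN channel genes, 7 calcium channel genes, 7 glutamate receptor genes, 22 vesicle release genes or 13 axon guidance genes passed that fold in either direction, with or without stretch 4. Among 18 potassium channel genes 1 was higher, the modifier subunit Kcns3 at log2 0.64, and without stretch 4 the channel partner Kcnip2 was lower at -0.95. Other lists gained a member past 1.5-fold only without stretch 4: Cntnap2 of synaptic adhesion (log2 -0.64), Cox7b of oxidative phosphorylation (-0.65) and Csrp1 of axon injury (-0.67) were lower, and Nefl of the cytoskeleton (0.59) and Pcsk2 of the granin and peptide list (0.65) were higher.

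Among the 22 transcription factors Pou4f1 was higher (log2 0.73). Without stretch 4 it stood at 0.93, and Zfhx3 was higher as well (0.71). Pou4f1 averaged 0.503 in the Btbd9-low CKO cells. In the Btbd9-high cells it was 0.148 in CKO and 0.172 in control. Of 13 calcium-binding proteins Calb1 was higher, and 9 stood above 0, as did 2802 of all 6671 genes. Without stretch 4, Calb1 and Calb2 were higher and S100a10 lower, and 8 stood above 0. Of all genes 3869 of 6671 stood below 0. The ribosomal protein genes stood lower in 64 of 72 with a median of -0.10; Rps2 was higher (log2 0.98) and Rpl21 and Rpl29 lower (-0.70 each), which without stretch 4 were not past 1.5-fold (-0.36 and -0.47). Rpl29 ran from 0.609 to 3.81 within CKO and from 1.84 to 4.64 within control, so the stretches of 1 genotype differed more than the pools. The oxidative phosphorylation genes stood lower in 27 of 32, with a median of -0.06 beside the -0.03 of all genes.

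**Figure D5:**
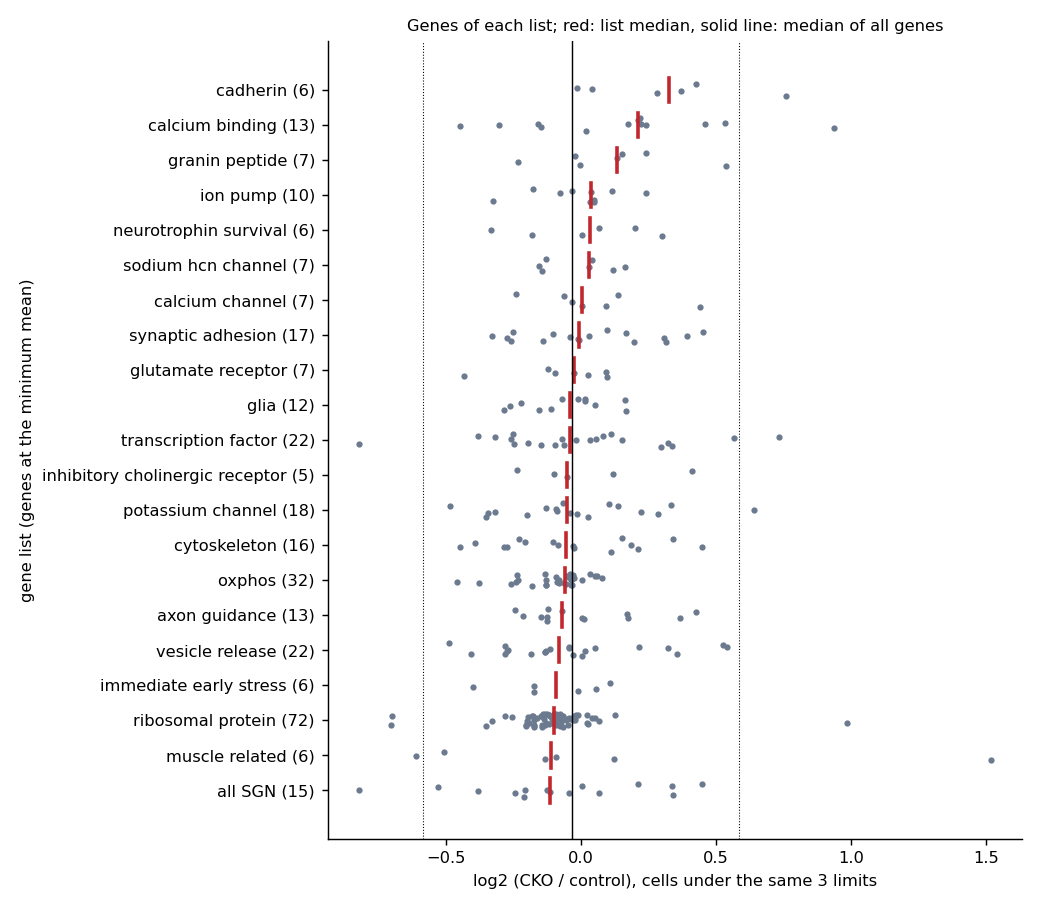
Log2 of CKO over control of each gene (points) in lists with at least 5 genes at the minimum mean, in the selected cells without the 7 set aside; red bars are list medians, the solid line the median of all genes and dotted lines 1.5-fold. List medians lie between -0.12 and 0.33, and few genes cross the dotted lines.

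RNA of other cell types was low apart from glia, as far as their markers were among the measured genes. The 17 glial markers summed to 41.0 UMIs per 10000 in CKO (1.21 to 189.6 over cells) and 43.5 in control (4.20 to 222.0), and none of the 12 at the minimum mean passed 1.5-fold. With the 7 cells kept, the medians were 34.6 in CKO and 49.9 in control, and by stretch 17.5, 47.2 and 17.6 in CKO stretches 1, 3 and 4, against 40.5 and 51.7 in control. Fibroblast markers averaged 1.34 in both pools, with up to 12.7 in a CKO cell, and Col1a2 was the most abundant of them (0.889 in CKO with the 7 cells kept). Supporting cell markers, with 2 of 6 measured, reached 4.55. Only 2 of 8 macrophage markers were measured, and neither had a UMI in the selected CKO cells. Of the 5 red cell markers 0 were measured, so red cell RNA could not be read. Markers of vessels (1 of 6 measured) and hair cells (3 of 7) summed to at most 0.494 in any CKO cell. Neuronal markers summed to 233.6 in CKO and 209.9 in control, but 9 of the 15 stood lower in CKO, with a median log2 of -0.12. The sums were 267.8, 218.5 and 207.6 in CKO stretches 1, 3 and 4, against 205.1 and 213.7 in control stretches 2 and 5. The part of glial RNA in the differences was not tested. The cells low in glial RNA, in which Ceacam10 and Ptgds changed sign, were cut at these unequal medians. Their glial RNA was thus not matched between the pools, and those values do not measure its part.

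Among the 212 CKO cells, thinned to equal depth, the genes that followed Calb2 most closely by Spearman's rho were Mdga1 (0.51), the neurofilaments Nefm (0.48) and Nefl (0.44), Sh3bgr (0.42) and Clec2l (0.37). Those most opposed included Btbd9 (-0.57), Gldn, whose product gliomedin organises nodes of Ranvier (-0.52), the ubiquitin ligase Nedd4 (-0.30) and S100a10 (-0.30). Within single stretches most of these were smaller: in stretches 1, 3 and 4 Sh3bgr had 0.18, 0.09 and -0.02, and Mdga1 0.25, 0.46 and 0.12. Btbd9 had -0.34, -0.38 and -0.08. S100a10 had 2.6e-05, -0.06 and 0.11, so its pooled value was not seen within the stretches. In the 392 control cells Mdga1 had 0.15 and Sh3bgr 0.05.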

How the data were processed

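Per the submitters' processing notes, the authors used Cell Ranger, Seurat and mm10; versions and roles are not given in the sources used here. The deposited table holds 14715 genes in 1954 cells as natural log values, ln(1 + UMIs per 100000), and a second deposited table gives the genotype of each column. Whole UMIs were recovered for 100% of values (tolerance 0.01), 10379 to 100856 per cell. All deposited cells were kept; no doublet caller was run, and the deepest cells were left out as an alternative. 1 barcode occurs in 2 cells, none of them a selected CKO cell.

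Levels are means over cells of UMIs per 10000, and log2 is of means with 0.1 added. With 1 pool per genotype no test was made. Genes are called at 2-fold and a mean of 0.5, list members at 1.5-fold and a mean of 0.2. Intervals are exact binomial or exact conditional Poisson. Cells were thinned to 10000 UMIs with a fixed seed. Named genes are Runx1, the genes of the rule and its markers, the 12 largest differences each way (6 each way against other CKO classes, 5 each way for rho), without predicted, sex-linked and mitochondrial genes, members of the type lists, and, of other lists, the 3 most abundant and up to 4 past 1.5-fold; some of these are not reported here. The members and the 35 lists were chosen with earlier results of these data known, and the Btbd9 classes after seeing the values. Alternatives varied the 3 limits, the filter, pseudocount, fold, depth weighting, thinning, Calb2 matching, glial RNA and the cells or stretches kept. The calls were tested on simulated counts with counting error only. These had no differences between stretches and planted changes larger than 2-fold, so the test does not show how the calls hold here. Python 3.11.15, numpy 2.4.6, pandas 2.3.3 and scipy 1.17.1 were used.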

Additional observations from a re-analysis of the deposited data

How the results depend on the processing

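Shares and calls describe 1 pool per genotype and have no test. The selected share of Dupd1-low CKO neurons, 29.5%, became 17.3% and 43.9% at Calb2 limits of 100 and 200, 33.5% in cells under the median glial sum of their pool, and 25.8% without stretch 4 and the 7 set-aside cells; leaving out 1 stretch at a time gave 26.3% to 32.7%. The 10 higher genes became 3 at a pseudocount of 0.5, 26 with no minimum mean, 6 at a mean of 1, 33 at 1.5-fold and 6 without the 7 cells, and 3 (without stretch 1) to 17 (without stretch 4) with 1 stretch left out. The 3 lower genes became 1 and 5 at Calb2 limits of 100 and 200, 0 at a pseudocount of 0.5, 1 with Calb2 matched, 18 at 1.5-fold, 15 in the cells low in glial RNA, 8 without stretch 4 and the 7 cells, and 1 (without stretch 1) to 10 (without stretch 5). Of 24 genes followed under 20 alternatives each, 17 kept 1 sign, with Runx1 at 0.32 to 0.55, Calb1 at 0.76 to 1.08 and Sh3bgr at 0.95 to 1.91. Ptn reversed to -0.058 at a Lypd1 limit of 1, -0.14 in the cells low in glial RNA, -0.24 without the 7 cells and -0.38 without stretch 4 as well, and ran from -0.24 to 2.24 with 1 stretch left out. Apoe reversed to -0.19, -0.45 and -0.071 under the first 3 of these. Ceacam10 and Ptgds reversed to -0.24 and -0.65 in the cells low in glial RNA. Without stretch 2, Ttn and Myl1 reversed to 0.24 and 0.30, and without stretch 5 they were -1.28 and -3.01. Beyond the removal of cells or stretches, the cause was not tested. The glial, 7-cell and Btbd9 alternatives were chosen after seeing the data; the planned glial limit left 4 CKO and 3 control cells and gave no value. The Btbd9-low share, 53.3%, was 52.8% and 54.7% at limits of 3 and 8, 31.7% and 68.8% at Calb2 limits of 100 and 200, and 35.1% to 73.2% with 1 stretch left out. No paired analysis was possible because the columns carry no replicate number.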

Other observations

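Of 23 genes at the minimum mean within 10 Mb of Runx1, 2 were at least 1.5-fold higher in the selected CKO cells (8.70% past 1.5-fold, against 1.11% of all 3796 genes). They were Sh3bgr, 3.374 Mb away, and Paxbp1, 1.557 Mb away. Sh3bgr averaged 2.06, 1.36 and 0.143 in CKO stretches 1, 3 and 4, against 0.305 and 0.442 in control, so stretch 4 lay below both control stretches. Paxbp1, a chromatin adaptor of Pax proteins, averaged 2.36, 1.40 and 1.79 in CKO stretches 1, 3 and 4. Control stretches 2 and 5 had 0.804 and 1.06. The part of linked sequence from the floxed chromosome in these differences was not tested.

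The letters TGTGGT, the core of the Runx consensus, were searched on both strands in RefSeq promoters (250 bases before to 50 after the start). They occurred in 3 of the 21 genes with a promoter that were 1.5-fold higher (14.3%), in 1 of the 6 lower ones, and in 13.6% of all genes at the minimum mean.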
